A study of Mus musculus with 15 samples.

Results

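Expression in mouse ventricle after 24 h of CELF2 induction was compared with expression after 12 h, the earliest point of the time course. The comparison takes in every gene with a mean of at least 1 RPKM (a read count scaled by the length of a gene's coding sequence and by the mapped reads of the library) over the 3 hearts at 24 h and the 3 hearts at 12 h, which was 10530 of the 16199 genes in the table. The other 5669 genes were left out, and 154 genes had a mean of 1 up to 1.1 RPKM while 139 had a mean of 0.9 up to 1 RPKM. The 24 h group and the 12 h group were both bitransgenic MHCrtTA/TRECUGBP2 mice (F1 offspring on an FVB background, 14 to 16 weeks old), in which doxycycline at 2 g/kg of food switched on an N-terminally FLAG-tagged human CELF2, and the groups differed in the labels by the 24 h or 12 h of induction. The other groups of the series, used to estimate the spread between hearts and for their levels, were 72 h and 7 d hearts of the same genotype and control hearts with MHCrtTA alone that had 72 h of doxycycline. The rtTA transactivator is driven by the Myh6 (alpha-myosin heavy chain) promoter, which is active in cardiomyocytes, while the RNA came from whole ventricle with the atria and a small part of the apex removed. The sources used here give no time of day for the harvests. Hours of induction, hours since the change of food and hour of the day therefore cannot be told apart in this comparison.

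As background, nearly all mammalian cells, cardiomyocytes included, hold a circadian clock, a feedback loop of transcription. BMAL1 (encoded by Arntl) pairs with CLOCK or its paralogue NPAS2 and activates genes through E-boxes, among them the period (Per) and cryptochrome (Cry) genes, whose proteins then repress BMAL1. The nuclear receptors REV-ERB (Nr1d1, Nr1d2) and ROR (Rora among them) repress and activate Arntl, and the PAR bZIP factors DBP, TEF and HLF carry the rhythm to output genes through D-boxes. CELF2 is an RNA-binding protein of the CELF family that acts on splicing and on mRNA in the cytoplasm.

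Sample titles hold a code, one for replicate 1 of the 24 h and of the 12 h group (the first code) and another for replicates 2 and 3 of both (the second code). No source used here says what the code means, and it is balanced between the groups. The summed level of 4 listed X-inactivation and Y-linked genes that passed the filter (Ddx3y, Eif2s3y, Uty and Kdm5d, all Y-linked) was 0.02, 53.5 and 52.34 RPKM in the 24 h hearts and 0.06, 0.05 and 0.03 RPKM in the 12 h hearts, so Y-linked mRNA was present only in 24 h replicates 2 and 3 of these 6 hearts. Rank correlations of RPKM between the 6 hearts were 0.946 or higher. Read totals are unknown, so the precision is judged from the spread between hearts. For the calls that spread came from all 15 hearts of the series, 3 in each group. The cardiomyocyte markers fitted the labelled tissue, and the atrial markers were uneven between hearts. The 12 cardiomyocyte markers summed to between 59300 and 64750 RPKM at 24 h and between 60360 and 67610 RPKM at 12 h, and none was called. Atrial markers (5 tested, none called) summed to 101.4, 231.6 and 143.7 RPKM at 24 h and 65.27, 541.8 and 175.5 RPKM at 12 h. The atrial marker Bmp10, below the filter, was 0.78 RPKM in 12 h replicate 2 and 0 to 0.02 RPKM in the other hearts compared. Whether that heart kept some atrial tissue was not tested. All 11 lymphocyte markers in the table were below the filter.

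Celf2 itself (listed as Cugbp2), counted on the mouse gene so that transgenic and endogenous mRNA are not separated, did not differ beyond the spread between hearts. It measured 173, 164.67 and 111.86 RPKM at 24 h and 192.22, 92.54 and 84.48 RPKM at 12 h, with 12 h replicate 1 above all 24 h hearts. The mean was 150 ± 33.2 RPKM at 24 h and 123 ± 60.01 RPKM at 12 h (SD, n = 3 each), a ratio of 1.22 (p = 0.6, exact two-sided permutation test, for which 0.1 is the smallest p that 3 against 3 hearts allow). The ratio was 0.90 within the first code and 1.56 within the second code, and leaving out 12 h replicate 1 gave 1.69. Control hearts held 8.54 to 11.27 RPKM, so all 6 hearts lay far above control. The related genes Celf1 (listed as Cugbp1; log2 difference, 24 h minus 12 h, -0.42 ± 0.21 SE), Mbnl1 (0.10 ± 0.28) and Mbnl2 (0.09 ± 0.13), which encode RNA-binding proteins of the same splicing programmes, were not called, and of 34 tested CELF, MBNL and splicing regulators none was called.

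Across the transcriptome 36 genes were higher and 24 were lower at 24 h than at 12 h (limma with a mean-variance trend on log2(RPKM + 0.5), Benjamini-Hochberg adjusted p under 0.05), 0.342% and 0.228% of the genes tested and together 0.570%. The 3 hearts at 24 h lay entirely above or entirely below the 3 hearts at 12 h in all 60. Of all 10530 genes tested, 432 lay entirely above and 498 entirely below, so such a gap alone does not mark a call. The change was at least 2-fold on this scale for 23 of the higher and 13 of the lower genes. The median log2 difference of all genes tested was 0.0034 and its median standard error 0.155. Of the 60, 30 reached a mean of 10 RPKM in either group. A gene of the circadian clock led the higher genes (Per2), and the clock activator Arntl was the second among the lower genes after Spon2, a secreted matrix protein. The plot of all genes by level shows that the called genes come from the whole range of low and moderate levels, and that the abundant genes of the heart stayed close to 0.

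**Figure D1:**
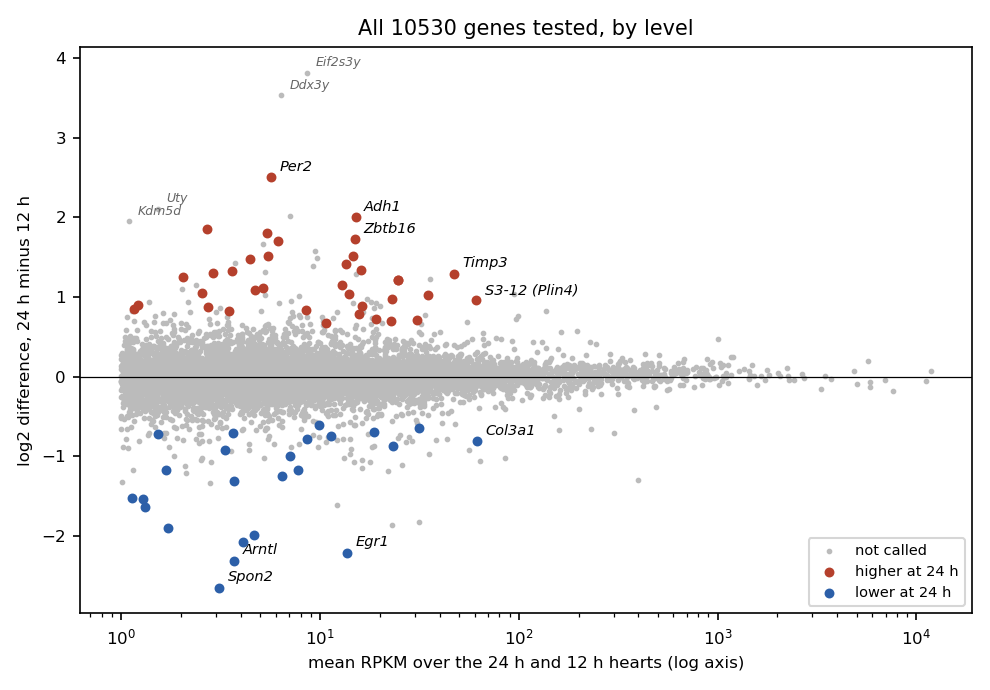
Each point is one of the 10530 genes tested, by its mean RPKM over the 24 h and 12 h hearts (log axis) and its log2 difference, 24 h minus 12 h. Red points are the 36 genes higher at 24 h, blue points the 24 genes lower at 24 h, and the 4 Y-linked genes named in grey were not called.

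The calls were read against the code and the Y-linked mRNA. With the code as a covariate the log2 differences stayed the same, the standard errors changed (0.15 in place of 0.21 for Per2), and 144 genes were higher and 110 lower (1.37% and 1.04% of those tested), all 60 among them. With the Y-linked level as a covariate all 60 kept their sign and 22 stayed called, 10 higher and 12 lower, and without 24 h replicates 2 and 3 a single 24 h heart was left and 13 stayed called, 6 higher and 7 lower, that heart being assumed to vary like the others. In the pair of the first code, 24 h replicate 1 against 12 h replicate 1, neither heart held Y-linked mRNA, and there the 36 higher genes had a median ratio of 2.22 (lowest 1.37) and the 24 lower genes a median ratio of 0.408 (highest 0.633). Within the second code these medians were 2.52 and 0.395. Since the hearts of the groups did not overlap in any of the 60, the direction of these ratios was fixed by the choice of genes. The ratios describe sizes and are no separate check on the code or the Y-linked mRNA. Among the higher genes, 24 h replicate 2 was the highest 24 h heart for 30 of 36 and replicate 1 the lowest for 21. Of the 60 genes, 23 stayed called in each of the 6 fits that leave out 1 heart, 14 higher and 9 lower. The fewest were called without 12 h replicate 2 (18 higher, 9 lower) and without 24 h replicate 2 (14 higher, 14 lower).

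**Figure D2:**
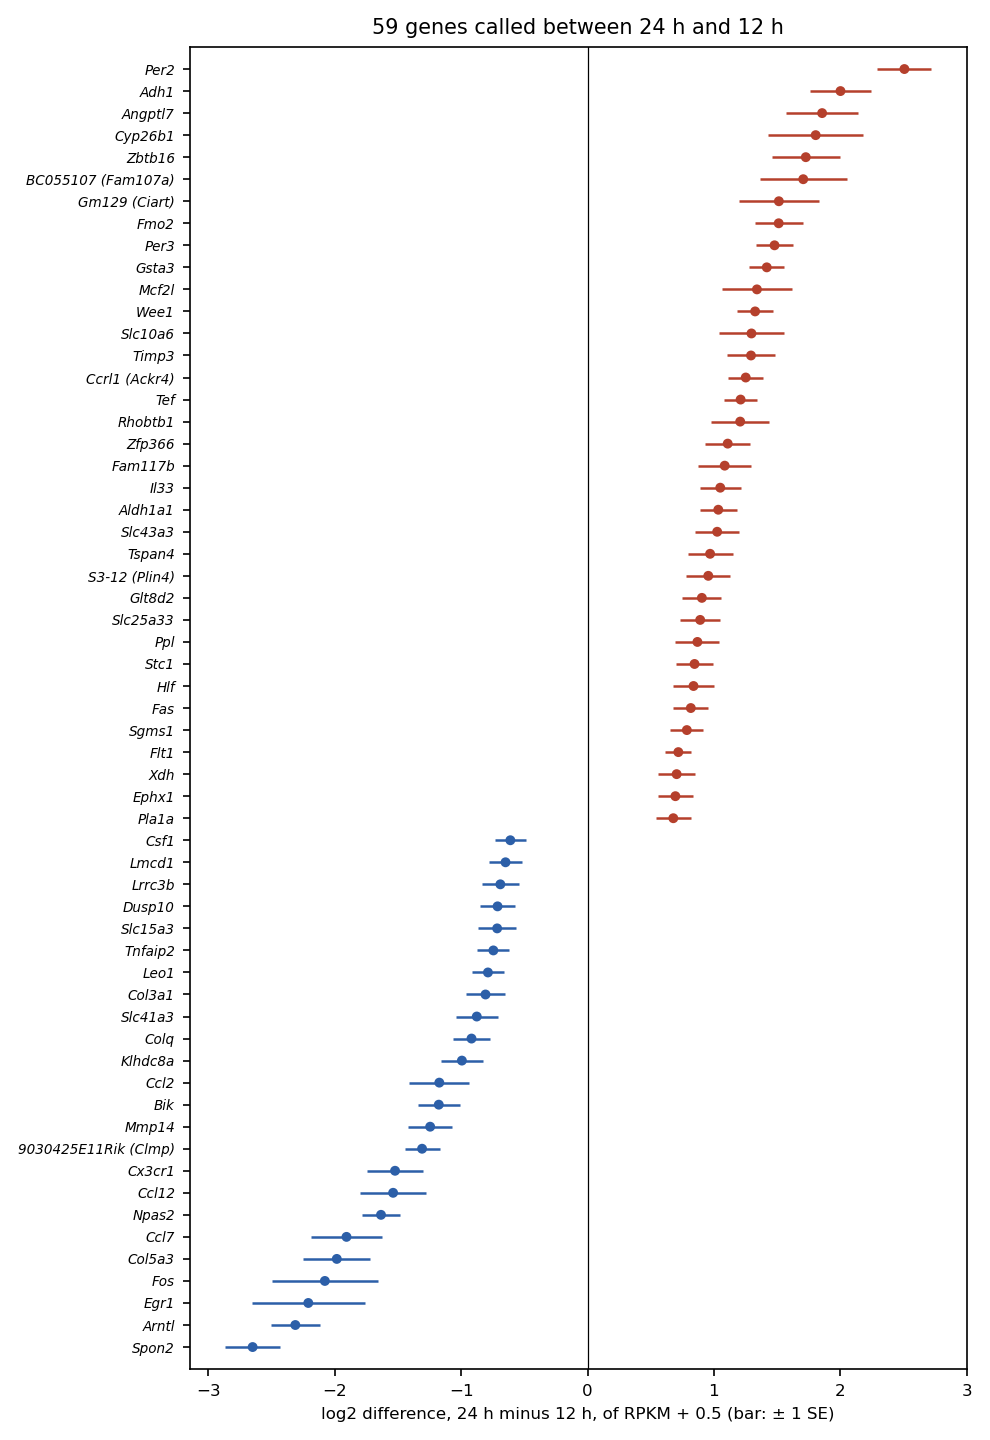
Of the called genes 59 are shown, ordered by log2 difference of RPKM + 0.5, 24 h minus 12 h, with bars of 1 SE on either side from the fit over 15 hearts. Genes higher at 24 h are in red, from Per2 at 2.51 to Pla1a at 0.68, and genes lower at 24 h in blue, from Csf1 at -0.61 to Spon2 at -2.65.

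Among the activators of the clock, Arntl and Npas2 fell. Arntl (Entrez 11865, mm9 chromosome 7, 120350979 to 120457636, + strand) measured 1.5, 0.65 and 0.68 RPKM at 24 h and 7.18, 6.41 and 5.77 RPKM at 12 h. No 24 h heart came near the lowest 12 h heart. The mean was 6.84-fold lower at 24 h, with a log2 difference of -2.31 ± 0.19 (SE, limma adjusted p = 3.9e-05). Npas2, whose protein can stand in for CLOCK, measured 0.41, 0.48 and 0.27 RPKM at 24 h and 2.58, 2.39 and 1.81 RPKM at 12 h, with a log2 difference of -1.63 ± 0.15 (limma adjusted p = 9.8e-05). Arntl and Npas2 each averaged under 1 RPKM at 24 h and passed the filter through their 12 h hearts. The ratio of 24 h to 12 h was 0.209 within the first code and 0.109 within the second code for Arntl. For Npas2 these ratios were 0.159 and 0.179. The hearts of the groups did not overlap in either gene, so the direction of the ratios was fixed and they describe sizes only. Clock was not called (log2 difference -0.07 ± 0.62), and its hearts overlapped, with 4.23, 2.1 and 1.03 RPKM at 24 h and 7.39, 1.42 and 0.93 RPKM at 12 h. The receptors Nr1d1 (-0.59 ± 0.30), Nr1d2 (0.86 ± 0.21) and Rora (0.27 ± 0.15) were not called. Of these, Nr1d2 alone had 24 h hearts that lay wholly above the 12 h hearts, at 26.03, 24.42 and 21.81 RPKM against 19.14, 11.38 and 10.07 RPKM, and it was called once the code was a covariate.

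The repressors of the loop went the other way where they were called. Per2 (Entrez 18627, mm9 chromosome 1, 93312561 to 93355907, - strand), whose protein represses BMAL1 together with the cryptochromes, measured 7.45, 12.05 and 10.62 RPKM at 24 h and 1.06, 1.19 and 1.79 RPKM at 12 h. Its mean was 10.04 ± 2.35 RPKM at 24 h and 1.35 ± 0.389 RPKM at 12 h (SD, n = 3 each), a 7.46-fold rise with a log2 difference of 2.51 ± 0.21 (SE, limma adjusted p = 3.9e-05), and the ratio was 7.03 within the first code and 7.61 within the second code. The lowest 24 h heart was still above every 12 h heart by a wide margin. Per3, a second period gene, measured 6.08, 7.7 and 6.5 RPKM at 24 h and 2.59, 1.81 and 1.94 RPKM at 12 h (log2 difference 1.48 ± 0.15, limma adjusted p = 0.00015). Ciart (listed as Gm129), a repressor of BMAL1 known as CHRONO, measured 4.49, 12.09 and 8.81 RPKM at 24 h and 1.55, 2.82 and 3.19 RPKM at 12 h. Its 24 h hearts were spread widely, and the log2 difference of 1.51 ± 0.32 sat at the edge of the threshold (limma adjusted p = 0.049), being called in 2 of the 6 fits that leave out 1 heart. No other tested repressor was called. Per1 measured 13.41, 27.62 and 19.54 RPKM at 24 h and 4.36, 17.42 and 16.34 RPKM at 12 h (log2 difference 0.81 ± 0.43), so that the groups overlapped. Cry1 measured 5.37, 5.46 and 6.17 RPKM at 24 h and 3.84, 3.62 and 3.32 RPKM at 12 h (0.59 ± 0.15, limma adjusted p = 0.11), with no overlap. Cry2 had a log2 difference of 0.33 ± 0.18. Bhlhe40 and Bhlhe41 (listed as Bhlhb2 and Bhlhb3), the DEC repressors, had 0.17 ± 0.21 and 0.40 ± 0.27, and the kinase genes Csnk1d and Csnk1e and the gene Timeless lay between -0.08 and 0.12. Fbxl21, also in the list, was below the filter at 0.03 to 0.31 RPKM in the 6 hearts.

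Of the 3 PAR bZIP output factors 2 rose. Tef measured 31.63, 41.37 and 31.81 RPKM at 24 h and 15.56, 13.26 and 15.35 RPKM at 12 h, a 2.37-fold higher mean (log2 difference 1.21 ± 0.13, limma adjusted p = 0.00028). Hlf measured 9.43, 12.79 and 10.85 RPKM at 24 h and 6.02, 4.96 and 6.86 RPKM at 12 h (0.84 ± 0.16, limma adjusted p = 0.031), and this call held in 2 of the 6 fits without 1 heart. The third member, Dbp, had a log2 difference as large as that of Tef and was not called. It measured 29.52, 58.14 and 59 RPKM at 24 h and 10.54, 18.55 and 38.74 RPKM at 12 h (1.22 ± 0.35, limma adjusted p = 0.23, and 0.010 with the code as a covariate). Within each group of Dbp the heart of the first code was the lowest, and the ratio of 24 h to 12 h was 2.80 within the first code and 2.04 within the second code. Nfil3, the E4BP4 repressor that competes with the PAR factors for the D-box, was not called (-0.26 ± 0.15). Over the 3 clock lists 5 of 23 tested genes were higher and 2 lower, beside 0.342% and 0.228% of all genes tested. The lists were assembled with earlier results of these data known, so the counts are a description. The median log2 difference was -0.07 for the activators and receptors, 0.36 for the repressors and 1.02 for the PAR and E4BP4 factors, beside 0.0034 for all genes tested. With the code as a covariate 8 of the 23 were higher and 2 lower, beside 1.37% and 1.04% of all genes tested. With the Y-linked level as a covariate 5 of the 23 were called, beside 22 of all 10530 genes tested.

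**Figure D3:**
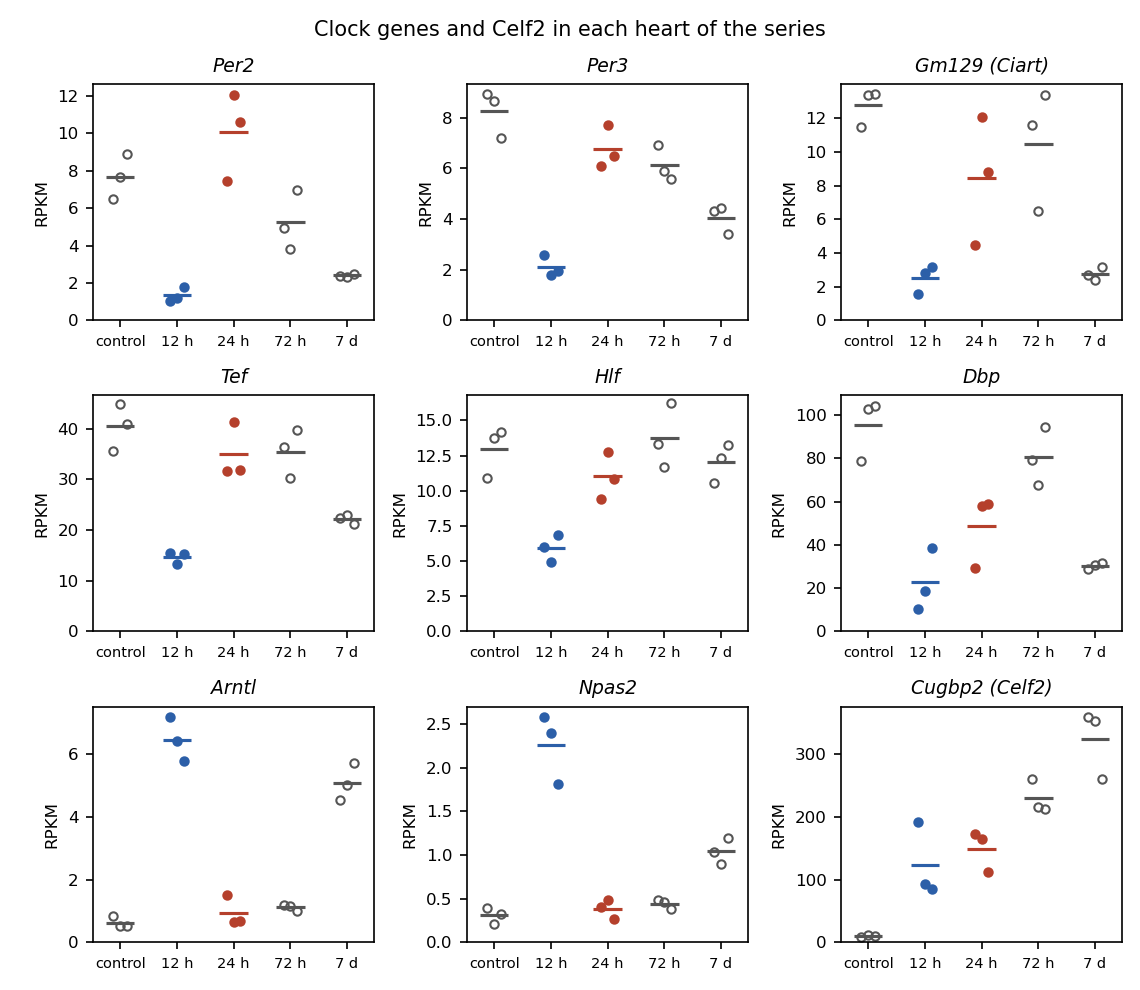
RPKM of 8 clock genes and Celf2 in each of the 15 hearts, with the group mean as a bar (control, 12 h, 24 h, 72 h and 7 d from left to right, 12 h in blue, 24 h in red). Per2, Per3, Tef and Hlf are lowest at 12 h and Arntl and Npas2 highest at 12 h, and the 24 h hearts lie on the side of the control and 72 h hearts.

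Sequence of the promoters was read for these clock genes, from RefSeq entries of assembly GRCm38.p6 that run from 250 bases before to 50 bases after each gene's start. Of the 23 genes 18 had an entry (26 promoters), and Per2 had none. The motifs searched on both strands were the E-box CACGTG, its variant CACGTT, the D-box TTANNTAA and the receptor element AGGTCA. Among all 32851 promoters CACGTG was held by 7.15%, CACGTT by 4.685%, TTANNTAA by 6.003% and AGGTCA by 16.26%, and among the 26 clock promoters 6, 3, 3 and 5 held them. The called genes with a match are shown, 1 promoter each. Clock genes that were not called also held matches, so a match does not mark a call. These were CACGTG in Per1, Cry1 and Bhlhe41, CACGTT in Nr1d1, Cry1 and Cry2, TTANNTAA in Timeless, and AGGTCA in Clock, Nr1d2, Per1 and Nfil3. Sequences run 5′ to 3′ on the gene's strand, with matches in capitals.
Ciart, E-boxes, chr3:95882179-95882478, - strand: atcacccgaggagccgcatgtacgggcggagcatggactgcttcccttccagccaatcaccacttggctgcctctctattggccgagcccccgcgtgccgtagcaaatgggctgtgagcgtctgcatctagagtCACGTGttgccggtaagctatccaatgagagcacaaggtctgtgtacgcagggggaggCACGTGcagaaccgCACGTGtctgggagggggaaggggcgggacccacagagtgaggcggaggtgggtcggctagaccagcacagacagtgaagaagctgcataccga
Tef, D-box then E-box, chr15:81802423-81802722, + strand: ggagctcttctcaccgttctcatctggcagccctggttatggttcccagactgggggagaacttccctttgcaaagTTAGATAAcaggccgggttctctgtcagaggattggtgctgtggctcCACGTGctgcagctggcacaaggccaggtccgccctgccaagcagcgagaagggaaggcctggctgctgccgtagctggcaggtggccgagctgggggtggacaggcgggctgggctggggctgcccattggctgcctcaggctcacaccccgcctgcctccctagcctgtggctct
Per3, D-boxes, chr4:151044616-151044915, - strand: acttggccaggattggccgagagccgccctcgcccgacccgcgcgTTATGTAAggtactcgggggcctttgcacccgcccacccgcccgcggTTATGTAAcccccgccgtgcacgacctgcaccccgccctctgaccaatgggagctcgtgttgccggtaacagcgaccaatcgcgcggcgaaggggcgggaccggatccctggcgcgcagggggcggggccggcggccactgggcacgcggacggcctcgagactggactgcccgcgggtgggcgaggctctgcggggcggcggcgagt
Arntl, receptor element, chr7:113207261-113207560, + strand: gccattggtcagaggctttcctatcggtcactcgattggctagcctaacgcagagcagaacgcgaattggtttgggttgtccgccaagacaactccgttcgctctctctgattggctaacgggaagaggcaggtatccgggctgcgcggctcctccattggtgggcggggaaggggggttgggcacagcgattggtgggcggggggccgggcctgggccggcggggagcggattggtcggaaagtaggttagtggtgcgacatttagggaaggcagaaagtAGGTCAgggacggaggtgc
Ciart, which was higher at 24 h, held 3 E-boxes, 116, 58 and 44 bases before its start. Tef, also higher, held a D-box 174 bases and an E-box 127 bases before its start, and its second promoter entry held an E-box. Per3, also higher, held 2 D-boxes of the same 8 letters, 205 and 158 bases before its start. Arntl, the gene that fell, held no E-box or D-box in this window and a receptor element 31 bases past its start, and Npas2 and Hlf held none of the motifs. A match describes the letters in this window and does not show that a factor was bound.

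Output genes of the clock were less uniform. Of 27 tested members of the clock-controlled list, 2 were higher, 1 was lower and the median log2 difference was 0.21. Over all genes tested, 0.342% were higher and 0.228% lower. Wee1, the kinase that holds CDK1 inactive before mitosis and a known E-box gene, measured 5.19, 6.16 and 4.81 RPKM at 24 h and 1.72, 1.81 and 1.99 RPKM at 12 h (log2 difference 1.33 ± 0.14, limma adjusted p = 0.00028), with narrow groups far apart. Tspan4, a tetraspanin, was 1.99-fold higher at 24 h (0.97 ± 0.18, limma adjusted p = 0.024) but was called in none of the fits that leave out 1 heart. Leo1, a subunit of the PAF1 complex of transcription elongation, went against them at 5.66, 6.27 and 6.7 RPKM at 24 h and 9.57, 11.56 and 12.24 RPKM at 12 h (-0.79 ± 0.13, limma adjusted p = 0.010). With the code as a covariate 9 members were higher and 1 lower, beside 1.37% and 1.04% of all genes tested.

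Several called genes that rose encode enzymes that oxidize or conjugate small molecules, and they are set side by side here after their values were seen. Adh1, the alcohol dehydrogenase that oxidizes retinol and ethanol, measured 18.75, 31.05 and 24.07 RPKM at 24 h and 5.44, 5.77 and 5.74 RPKM at 12 h, a 4.36-fold higher mean (log2 difference 2.00 ± 0.24, limma adjusted p = 0.00070). The 12 h hearts were nearly alike and the 24 h hearts differed more among themselves. Of 14 tested genes of the retinoid list 2 rose, beside 0.342% of all genes tested, and both act on retinoic acid. Aldh1a1, which makes retinoic acid from retinaldehyde, measured 16.23, 21.13 and 19.98 RPKM at 24 h and 9.75, 8.04 and 9.35 RPKM at 12 h (1.03 ± 0.15, limma adjusted p = 0.0034). Cyp26b1, which breaks retinoic acid down, measured 7.39, 9.73 and 8.67 RPKM at 24 h and 1.63, 3.83 and 1.38 RPKM at 12 h (1.81 ± 0.37, limma adjusted p = 0.048, called in 1 of the 6 fits that leave out 1 heart). Control, 72 h and 7 d hearts held 0.62 to 3.23 RPKM of Cyp26b1, so that the 24 h hearts stood above all 12 others of the series. The list's median log2 difference was -0.04. Gsta3, a glutathione S-transferase, measured 22.36, 17.57 and 19.83 RPKM at 24 h and 6.83, 8.29 and 6.33 RPKM at 12 h (1.42 ± 0.14, limma adjusted p = 0.00014), and it too was higher at 24 h than in any other heart of the series. Fmo2, a flavin monooxygenase, was 2.99-fold higher (1.51 ± 0.19, limma adjusted p = 0.0012). Ephx1, the microsomal epoxide hydrolase, was 1.62-fold higher and Xdh, the xanthine dehydrogenase of purine breakdown, was 1.64-fold higher, both near the threshold (limma adjusted p = 0.041 and 0.046).

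Zbtb16, the zinc finger gene that encodes PLZF and answers to glucocorticoids, measured 23.78, 23.3 and 22.96 RPKM at 24 h and 7.97, 6.72 and 5.61 RPKM at 12 h (log2 difference 1.73 ± 0.27, limma adjusted p = 0.0074). Its 24 h hearts were almost identical. It was the only called gene of 25 tested glucocorticoid-induced genes, whose median log2 difference was 0.39 and of which 16 lay above 0 (5359 of 10530 over all genes tested). Others of that list had large differences without a call, such as Fkbp5 (8.16, 9.55 and 7.23 RPKM at 24 h, 4.41, 4.05 and 3.94 RPKM at 12 h, limma adjusted p = 0.31) and Klf15 (19.73, 27.64 and 22.28 RPKM at 24 h, 10.22, 12.02 and 12.09 RPKM at 12 h, limma adjusted p = 0.054, and called with the code as a covariate). With the code, 5 of the 25 were higher and 1 was lower, beside 1.37% and 1.04% of all genes tested.

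Further higher genes among the 15 largest differences encode proteins of varied function. Angptl7, a secreted angiopoietin-like protein, was 5.25-fold higher (3.48, 6.11 and 4 RPKM at 24 h, 1.04, 0.85 and 0.7 RPKM at 12 h, limma adjusted p = 0.0058). Its 12 h mean was under 1 RPKM, so it passed the filter through its 24 h hearts. Timp3, the matrix-bound inhibitor of metalloproteinases, was the most abundant of them at 59.73, 81.4 and 62.1 RPKM at 24 h and 25.01, 29.41 and 26.99 RPKM at 12 h (log2 difference 1.29 ± 0.19, limma adjusted p = 0.0046). Ackr4 (listed as Ccrl1), a scavenging receptor for chemokines, was 3.04-fold higher with tight groups (limma adjusted p = 0.00028). Fam107a (listed as BC055107) was 3.75-fold, Slc10a6, a carrier of steroid sulfates, 2.92-fold and Mcf2l, a guanine nucleotide exchange factor, 2.57-fold higher, and these calls held in at most 2 of the 6 fits that leave out 1 heart. Flt1, a receptor for VEGF and the one called gene of 14 tested endothelial markers, was 1.67-fold higher (24.47, 26.3 and 21.4 RPKM at 24 h, 15.82, 13.63 and 13.77 RPKM at 12 h, limma adjusted p = 0.0034), while the 14 markers together summed to 1348, 1433 and 1459 RPKM at 24 h and 1231, 1292 and 1405 RPKM at 12 h. Of 32 tested genes of glucose transport, glycogen and glycolysis none was called. Il33, an alarmin cytokine, was 2.43-fold and Fas, the death receptor, 1.93-fold higher. The remaining higher genes described here had log2 differences from 0.68 to 1.21. Among them, Plin4 (listed as S3-12), which coats lipid droplets, Sgms1, a sphingomyelin synthase, and Pla1a, a phospholipase, act on lipids, and Slc43a3 and Slc25a33 carry nucleobases and mitochondrial pyrimidine nucleotides. The others were Rhobtb1, Zfp366, Fam117b (listed without a symbol), Glt8d2, Ppl, which encodes the junctional protein periplakin, and Stc1, which encodes the secreted glycoprotein stanniocalcin 1.

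**Figure D4:**
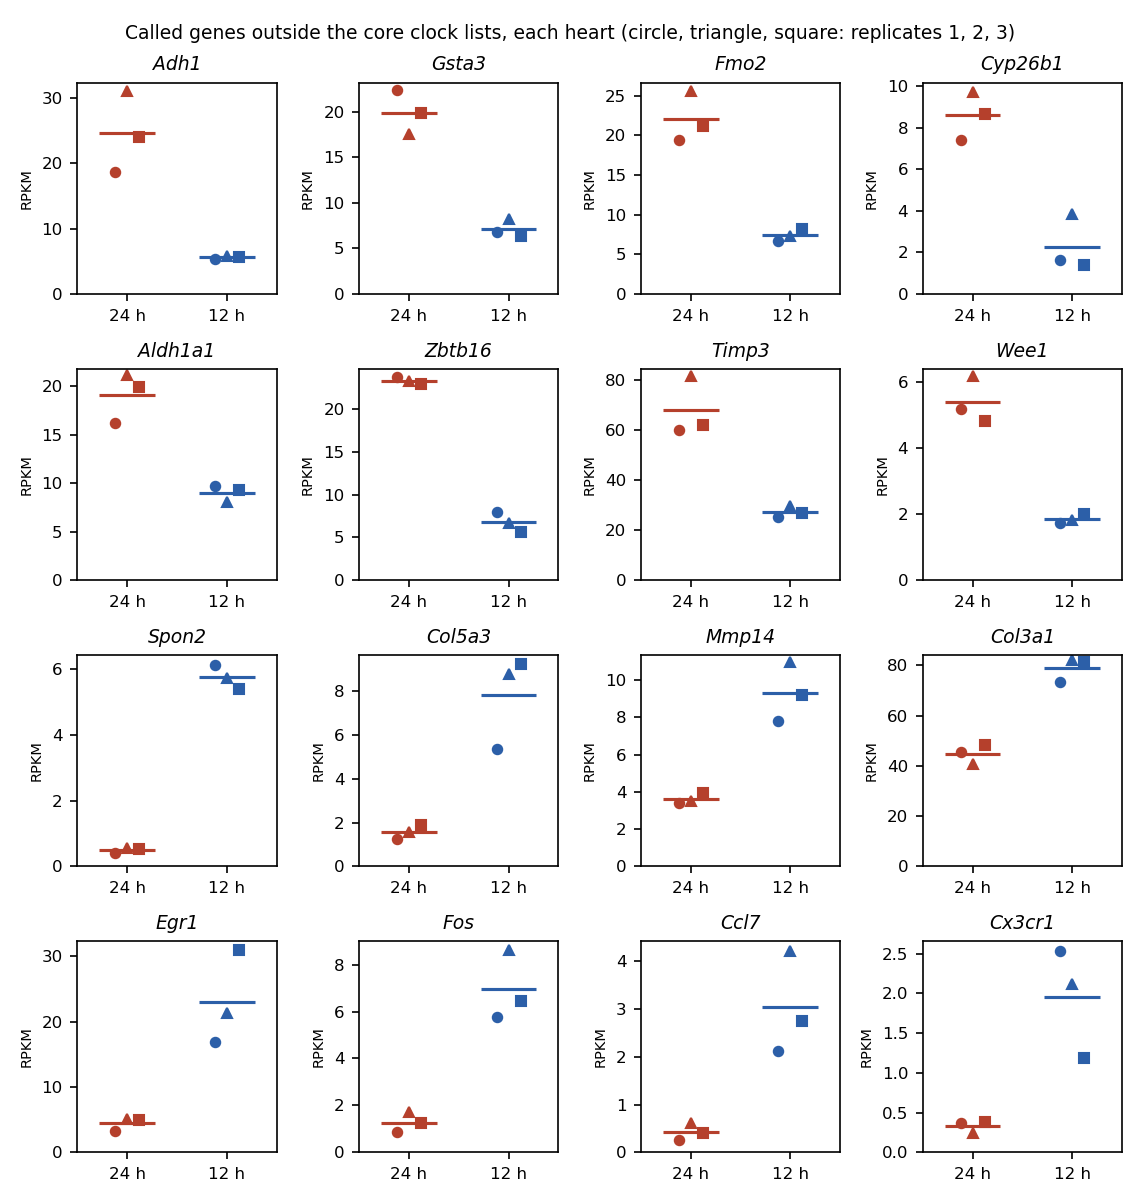
RPKM of 16 called genes outside the core clock lists in each 24 h heart (red, left) and each 12 h heart (blue, right), with replicates 1, 2 and 3 as circle, triangle and square and the group mean as a bar. In every panel the 24 h hearts lie wholly above or wholly below the 12 h hearts.

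Genes of the extracellular matrix were among the lower genes. Of 33 tested collagen and matrix genes 3 fell and Timp3 rose, with a median log2 difference of -0.09. Over all genes tested, 0.228% were lower and 0.342% higher. Spon2 (Entrez 100689, mm9 chromosome 5, 33556167 to 33560887, - strand), which encodes the secreted matrix protein spondin 2, measured 0.4, 0.56 and 0.53 RPKM at 24 h and 6.13, 5.73 and 5.39 RPKM at 12 h. The mean was 11.6-fold lower at 24 h and the log2 difference was -2.65 ± 0.22 (SE, limma adjusted p = 3.9e-05), the largest of the called genes in either direction. Control and 72 h hearts held 0.49 to 1.09 RPKM and 7 d hearts 1.73 to 3.69 RPKM of Spon2, so the 12 h hearts stood above all others. Every 24 h heart was under 1 RPKM, so Spon2 passed the filter through its 12 h hearts. Mmp14, the membrane-bound metalloproteinase, measured 3.4, 3.51 and 3.93 RPKM at 24 h and 7.8, 10.96 and 9.21 RPKM at 12 h (-1.25 ± 0.17, limma adjusted p = 0.0032). Col3a1, a fibrillar collagen, measured 45.59, 40.71 and 48.36 RPKM at 24 h and 73.35, 81.94 and 81.23 RPKM at 12 h (-0.81 ± 0.16, limma adjusted p = 0.034). This call held without 12 h replicate 1 (limma adjusted p = 0.045). It was lost when any other of the 6 hearts was left out (highest limma adjusted p 0.18). Col5a3, a type V collagen chain outside the list, was 4.99-fold lower at 1.25, 1.56 and 1.88 RPKM at 24 h and 5.37, 8.8 and 9.24 RPKM at 12 h (-1.98 ± 0.27, limma adjusted p = 0.0023). None of the 11 tested fibroblast markers was called, and their sum was 1243, 1211 and 1202 RPKM at 24 h and 1083, 1198 and 1192 RPKM at 12 h. In whole tissue, fewer cells of a type and less RNA per cell cannot be told apart.

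Immediate early genes, many of which encode transcription factors, are switched on within minutes of a stimulus. Their list gave 2 lower genes of 21 tested, with a median log2 difference of -0.29 and 14 of 21 below 0. Of all 10530 genes tested, 0.228% were lower and 5171 had a difference below 0. Egr1 measured 3.34, 5.13 and 5.03 RPKM at 24 h and 16.83, 21.27 and 30.89 RPKM at 12 h (log2 difference -2.21 ± 0.45, limma adjusted p = 0.043). Fos measured 0.87, 1.7 and 1.25 RPKM at 24 h and 5.78, 8.6 and 6.46 RPKM at 12 h (-2.08 ± 0.42, limma adjusted p = 0.043). The 2 genes varied widely within other groups, for example from 4.83 to 14.38 RPKM for Egr1 and from 0.66 to 4.33 RPKM for Fos among control hearts. Leaving out 1 heart, Egr1 was called in 1 of 6 fits (highest limma adjusted p 0.16) and Fos in none (highest limma adjusted p 0.19). Other members such as Junb (-0.73 ± 0.26) and Dusp1 (-0.93 ± 0.25) were not called, and Nr4a3 had a difference above 0 (0.92 ± 0.36).

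The chemokine genes Ccl2, Ccl7 and Ccl12, whose products draw monocytes, were each lower at 24 h. No list of chemokines was counted, and these 3 are named from their calls. They lie close together on mm9 chromosome 11 (81849073 to 81850955, 81859214 to 81861027 and 81915347 to 81916902, all + strand). Ccl7 measured 0.26, 0.61 and 0.4 RPKM at 24 h and 2.12, 4.21 and 2.75 RPKM at 12 h (log2 difference -1.91 ± 0.28, limma adjusted p = 0.0050). Ccl12 measured 0.39, 0.12 and 0.83 RPKM at 24 h and 2.16, 2.38 and 1.85 RPKM at 12 h (-1.54 ± 0.26, limma adjusted p = 0.012). Ccl2 measured 0.95, 0.71 and 0.84 RPKM at 24 h and 1.9, 3 and 2.71 RPKM at 12 h (-1.17 ± 0.24, limma adjusted p = 0.043), a call that held in 1 of the 6 fits that leave out 1 heart. All 3 genes were of low abundance, under 1 RPKM in every 24 h heart, and passed the filter through their 12 h hearts. Cx3cr1, the fractalkine receptor of macrophages and monocytes, measured 0.37, 0.24 and 0.38 RPKM at 24 h and 2.54, 2.12 and 1.19 RPKM at 12 h (-1.52 ± 0.22, limma adjusted p = 0.0046). Cx3cr1 too passed the filter through its 12 h hearts. It was the one called gene of 14 tested macrophage markers, which together summed to 149.6, 140.4 and 157.6 RPKM at 24 h and 167.9, 186.8 and 117.4 RPKM at 12 h, with 12 h replicate 3 the lowest of all 6 hearts. Csf1, the growth factor of macrophages, was 1.56-fold lower at 24 h (limma adjusted p = 0.043) and was called in none of the fits that leave out 1 heart.

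The other lower genes with a place among the 15 largest differences were Clmp (listed as 9030425E11Rik), a junctional adhesion molecule, at 1.62, 2.44 and 1.76 RPKM at 24 h and 4.88, 5.83 and 5.8 RPKM at 12 h (log2 difference -1.31 ± 0.14, limma adjusted p = 0.00026). Bik, a BH3-only gene of apoptosis, was 2.39-fold lower (limma adjusted p = 0.0032). Klhdc8a, a kelch-domain gene, was 2.08-fold lower, and Colq, the collagen tail of acetylcholinesterase, was 2.11-fold lower (limma adjusted p = 0.011 and 0.0096). Slc41a3, a gene of the magnesium carrier family and the one called gene of 15 tested solute carriers, was 1.89-fold lower. Klhdc8a, Colq and Slc41a3 were highest in the 7 d hearts, at 13.24 to 19.73, 9.4 to 12.92 and 47.74 to 56.32 RPKM. The remaining lower genes had log2 differences from -0.65 to -0.75, and they were Lmcd1, a LIM-domain gene, Lrrc3b, Dusp10, a phosphatase of MAP kinases, Slc15a3, a peptide and histidine carrier, and Tnfaip2.

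Many gene groups of the heart showed no call. Of 36 lists, 35 had a tested member, 13 had a called member and 22 had none. The 24 tested sarcomere and calcium cycling genes had a median log2 difference of -0.04, the 44 cytosolic ribosome genes 0.05 and the 46 genes of the respiratory chain and ATP synthase 0.04, with all ribosome and respiratory chain members between -0.16 and 0.23. The 29 genes of PPAR alpha and the fasting response had a median of 0.05, the 30 genes of sterol and fatty acid synthesis -0.06, and the 45 heat shock and chaperone genes 0.08. Of the 30 sterol and fatty acid genes 7 lay wholly below and 1 wholly above, beside 498 and 432 of all 10530. With the code as a covariate 3 of the 30 were lower and 0 higher, beside 1.04% and 1.37% of all genes tested. Interferon response genes had a median of -0.43 with 31 of 32 members below 0 (5171 of 10530 over all genes tested), and none was called. Their summed level was 194.3, 139.8 and 160.8 RPKM at 24 h and 403.1, 428.1 and 144.6 RPKM at 12 h, so 12 h replicates 1 and 2 stood high while 12 h replicate 3 lay among the 24 h hearts. Igtp, an interferon-induced GTPase, measured 16.05, 5.77 and 7.57 RPKM at 24 h and 79, 75.5 and 5.72 RPKM at 12 h.

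**Figure D5:**
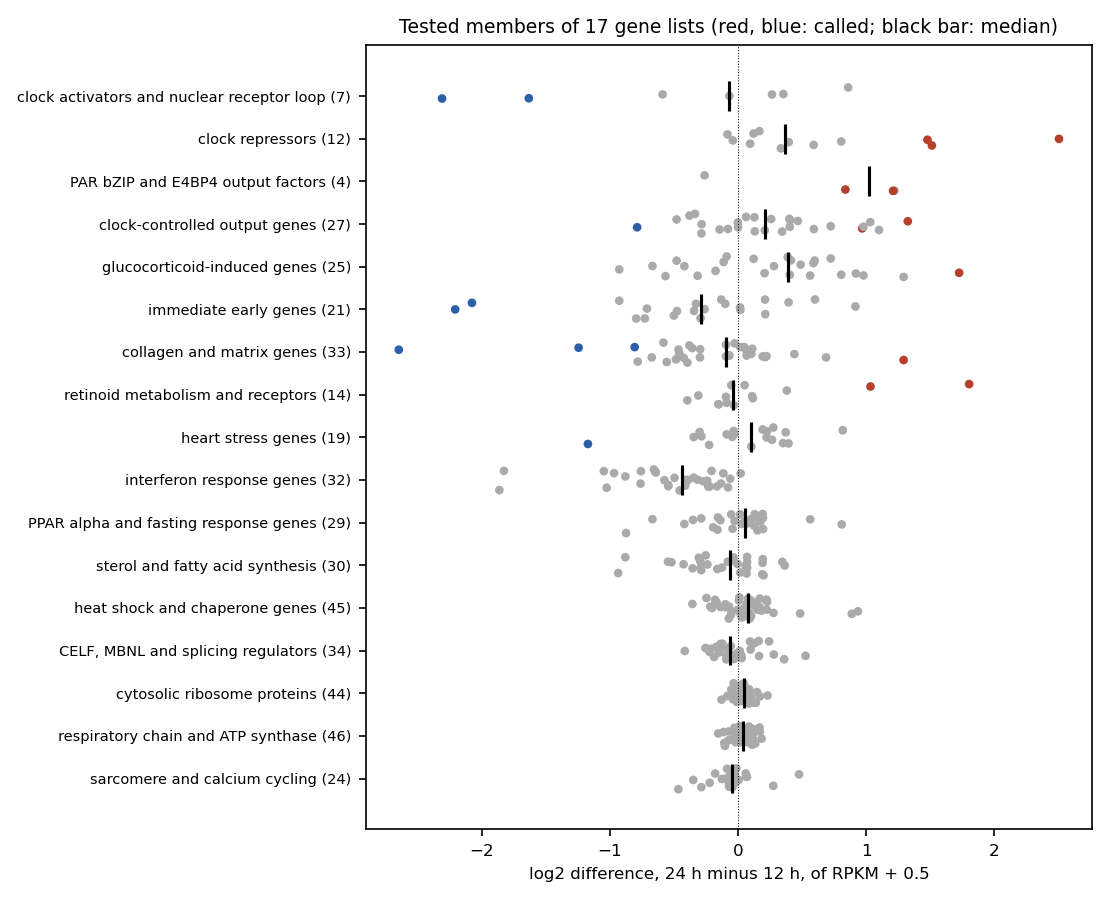
Log2 difference of RPKM + 0.5, 24 h minus 12 h, for each tested member of 17 gene lists, with the number of tested members in brackets and the median as a black bar. Called genes are in red (higher) and blue (lower), and they are found in the clock lists, the output, glucocorticoid, immediate early, matrix, retinoid and heart stress lists and in none of the others shown.

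The levels in the other groups of the series placed the 60 genes further. Along the order of control, 12 h, 24 h, 72 h and 7 d, Arntl averaged 0.623, 6.45, 0.943, 1.12 and 5.09 RPKM, and Per2 averaged 7.68, 1.35, 10.04, 5.26 and 2.41 RPKM. The 7 d hearts thus lay near the 12 h hearts for both genes, and the control and 72 h hearts near the 24 h hearts. On the log2 scale all 7 called clock genes had control and 72 h means nearer to the 24 h mean than to the 12 h mean, while at 7 d 3 were nearer to 24 h and 4 nearer to 12 h. Over all 60 genes the control mean was nearer to the 24 h mean for 40, the 72 h mean for 29 and the 7 d mean for 12, which leaves 48 nearer to the 12 h mean at 7 d. These 60 were chosen for the difference between 24 h and 12 h, control hearts carried no CELF2 transgene, and the 72 h and 7 d hearts carry the first code and a further one, so the counts describe levels only.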

How the data were processed

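Poly(A)+ RNA of 15 ventricles was sequenced by a strand-specific paired-end protocol. Per the labels and methods of the study, the authors mapped reads with TopHat and Bowtie to mm9 (versions not given in the sources used here) and deposited RPKM values, in which reads on the constitutive coding sequence of each RefSeq gene were scaled by its length and by the uniquely mapped reads outside ribosomal and mitochondrial RNA. Depth per library is unknown, since the low values (3475 genes with a nonzero value under 0.05 in some heart) show no steps of whole reads, so no counting interval is given. Whether counting used strand is not given, and 13 of 59 called genes with a GENCODE position in mm9 have an exon that overlaps one on the other strand.

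Groups came from time point and genotype labels. The labels also name a Celf1 cassette, and the design text describes Celf1 in muscle, at odds with genotype and titles. Each heart is a separate animal.

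The linear models of limma 3.58.1 (R 4.3.3), with a trend of the variance on the mean, took log2(RPKM + 0.5) of the genes averaging 1 RPKM or more in the 6 hearts compared. All 15 hearts entered as 5 group means without a covariate, and called genes had a Benjamini-Hochberg adjusted p under 0.05. Folds are ratios of mean RPKM, and log2 differences understate changes of low genes because of the 0.5 added. Celf2 was tested by exact permutation. The fit was tested on simulated data. Alternatives changed the added constant, filter, scaling, covariates, weights and hearts. Of 840 listed gene entries in 36 lists, 25 did not match the table. Genes were named as members of 3 clock lists, among the 15 largest differences each way, among up to 4 called members of each list, or as markers, and others were named after their values were seen. A few genes within the rule are left out of the text, while all counts include them. The comparison, lists and rules were chosen with earlier results of these data known. Current symbols and promoters are from RefSeq, GRCm38.p6. Python 3.11.15, numpy 2.4.6, pandas 2.3.3, scipy 1.17.1 and matplotlib 3.10.9 were used.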

Additional observations from a re-analysis of the deposited data

How the results depend on the processing

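Of the 36 higher and 24 lower genes, the counts moved by more than 1.5 times under these alternatives. A minimum mean of 5 RPKM gave 19 and 7, with fewer genes tested. Median-ratio, upper-quartile and quantile scaling gave 56, 58 and 55 higher genes. The code as a covariate gave 144 and 110, and the Y-linked level 10 and 12. The 6 hearts alone gave 16 and 10, and with the code 66 and 38. Library quality weights, whose estimate did not converge, gave 707 and 934. Leaving out 1 heart at a time gave 14 to 48 higher and 9 to 56 lower genes, the most without 12 h replicate 1 (48 higher) and without 12 h replicate 3 (56 lower). Of alternatives chosen after seeing the data, gene-by-gene weights gave 160 and 214, leaving out 24 h replicates 2 and 3 gave 6 and 7, and leaving out the 72 h and 7 d hearts stayed within 1.5 times. The cause of these moves was not tested. The other alternatives stayed within 1.5 times, but without a filter 37 of the 60 genes were shared and with code and Y-linked level together 41. No called gene reversed its sign under any of them. The Celf2 ratio stayed above 1, at 1.21 to 1.22 under scaling and 1.05 to 1.69 leaving out 1 heart. No paired analysis was possible because the labels carry no replicate numbers, and the title code that hearts of both groups share was entered as a covariate in its place. Unknown depth limits genes near 1 RPKM.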

Other observations

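With the code of the sample titles as a covariate, 194 further genes passed the threshold, 108 higher and 86 lower. The hearts of the groups did not overlap in 154 of them, beside 432 genes wholly above and 498 wholly below among all 10530 tested. The 8 largest differences each way among these 154 follow in part, named after their values were seen. Timp4, an inhibitor of metalloproteinases, measured 9.11, 18.8 and 15.24 RPKM at 24 h and 3.72, 6.42 and 3.31 RPKM at 12 h. Hsd11b1, the enzyme that regenerates active glucocorticoid from its inert form, measured 6.95, 15.74 and 18.85 RPKM at 24 h and 5.73, 4.05 and 4.13 RPKM at 12 h, with the 24 h heart that lacked Y-linked mRNA close to the 12 h hearts. Ifi205 followed the same order, with 4.63, 14.47 and 16.25 RPKM at 24 h and 2.38, 3.38 and 1.25 RPKM at 12 h. It belongs to a family of near-identical copies whose reads can be split by mapping. Over all 15 hearts, Hsd11b1 was 4.05 to 6.95 RPKM without Y-linked mRNA and 8.65 to 18.85 RPKM with it. Ifi205 was 1.25 to 4.63 RPKM without it and 5.51 to 16.25 RPKM with it. With the Y-linked level as a covariate their log2 differences were 0.61 and 0.90 in place of 1.39 and 2.01. The metallothionein gene Mt2 measured 18.85, 33.53 and 14.33 RPKM at 24 h and 7.79, 8.27 and 8.62 RPKM at 12 h. Herpud1, a gene of degradation at the endoplasmic reticulum, was the most abundant of the higher ones, at 96.6, 166.24 and 123.09 RPKM at 24 h and 54.04, 61.26 and 68.87 RPKM at 12 h.

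Of the lower genes of this kind, 3 are named here after their values were seen, with no list counted. B2m, the light chain of class I molecules, measured 273, 178.93 and 203.15 RPKM at 24 h and 801.89, 646.46 and 289.27 RPKM at 12 h. The class II genes H2-DMa and H2-Eb1 had log2 differences of -1.02 and -0.99. In each of the 3 genes 12 h replicate 3 was the lowest 12 h heart, as it was for the interferon response genes. Retn, which encodes resistin and is an adipocyte marker, measured 0.81, 0.27 and 0.1 RPKM at 24 h and 1.66, 2.02 and 1.24 RPKM at 12 h. It passed the filter through its 12 h hearts. Over all hearts of the series, Retn was 0.73 to 2.02 RPKM without Y-linked mRNA and 0.1 to 0.41 RPKM with it. With the Y-linked level as a covariate the log2 difference of Retn was -0.63 in place of -1.32. The 9 tested adipocyte markers had a median log2 difference of -0.45, with 5 below 0, beside 5171 of all 10530 genes tested. In 4 of the 9 (Retn, Adipoq, Car3 and Cidec) the 24 h hearts lay wholly below the 12 h hearts, as in 498 of all 10530. The 12 h hearts all lacked Y-linked mRNA, while 24 h replicates 2 and 3 held it. Adipoq, which encodes adiponectin, measured 1.07, 0.99 and 1.12 RPKM at 24 h and 2.01, 3.02 and 2.23 RPKM at 12 h, and of the 9 Retn alone was called with the code. The sum of the 9, which Lpl and Fabp4 dominate, was 2047, 2185 and 2145 RPKM at 24 h and 2025, 1826 and 1915 RPKM at 12 h. The part of fat and of immune cells in these values was not tested.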
